A study of Homo sapiens with 6 samples.

Results

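The genes described are the classical MHC class I heavy chain genes HLA-B and HLA-C, the non-classical heavy chain genes HLA-E, HLA-F and HLA-G, the light chain gene B2M, and TAP1, TAP2 and TAPBP of the peptide transporter. Every probe set whose only gene symbol in the platform annotation was one of these 9 genes was taken, which gave 25 of the 19065 probe sets with 1 gene symbol and 9 of 11963 genes. All 9 were read by 1 to 4 probe sets each, and no probe set named several genes including one of them. The samples were 3 arrays of LCCTam, a tamoxifen-resistant variant of the SUM44 line, at passages 8, 9 and 10, and 3 arrays of SUM44, an established invasive lobular breast carcinoma line positive for estrogen and progesterone receptors, at passages 74, 75 and 76. Both lines were grown in the same medium, and 500 nM 4-hydroxytamoxifen, the active metabolite of tamoxifen, is named in the labels for LCCTam only. Line, drug and passage therefore cannot be told apart, and LCCTam is a single derived variant. Replicates 1 to 3 are the passages in the order given.

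MHC class I molecules display peptides from inside the cell to CD8+ T cells. A heavy chain pairs with beta-2-microglobulin in the endoplasmic reticulum, where TAP1 and TAP2 form the transporter that brings in peptides and tapasin, the product of TAPBP, holds the empty heavy chain beside it. HLA-E mainly presents peptides from the leader sequences of other class I heavy chains to receptors of natural killer cells, and class I transcription is known to respond to interferons through an interferon-stimulated response element in the promoter.

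In RefSeq (GRCh38.p14), HLA-F, HLA-G, HLA-E, HLA-C, HLA-B, TAP2, TAP1 and TAPBP lie on chromosome 6, from chr6:29723434-29738532 for HLA-F to chr6:33299694-33314078 for TAPBP, and B2M lies at chr15:44711517-44718145. A promoter window, from 250 bases before to 50 after a RefSeq start, was matched for 8 of the 9 genes. The core of the interferon-stimulated response element was searched as AANNGAAA on both strands. It was found in 7 of the 8 promoters, all but that of HLA-G, against 22.8% of 35116 windows of the same length. A longer form with GAAA repeated after any 2 bases, which overlaps it, was found in 5 of the 8 (HLA-F, B2M, TAP1, TAP2 and TAPBP), against 3.57% of windows. CCAAT, the sequence bound by NF-Y, was found on either strand in 6 of the 8, all but TAP2 and TAPBP, against 34.6% of windows. A match is a description of these letters only. For HLA-G and TAP1, which have several windows, the HLA-G window sharing a 12-base sequence with the other heavy chain genes and the first listed TAP1 window were used.

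The first 4 sequences are aligned on that shared sequence at their 3′ end and are shown because HLA-B, HLA-C and HLA-F hold the match there and HLA-G does not. Each is 80 bases, 5′ to 3′ on the gene's strand, with the AANNGAAA match or its reverse complement in capitals. HLA-B is chr6:31357296-31357375 on the minus strand, HLA-C is chr6:31272208-31272287 on the minus strand, HLA-F is chr6:29723237-29723316 and HLA-G is chr6:29827629-29827708, both on the plus strand. The other sequences show the element in the light chain and transporter genes. B2M is chr15:44711342-44711421 on the plus strand, TAP1 is chr6:32853792-32853871, and TAPBP is chr6:33314079-33314158, both on the minus strand.
HLA-B: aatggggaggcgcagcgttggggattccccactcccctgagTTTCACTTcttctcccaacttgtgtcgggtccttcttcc
HLA-C: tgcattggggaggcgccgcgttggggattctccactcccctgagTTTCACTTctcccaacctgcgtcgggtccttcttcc
HLA-F: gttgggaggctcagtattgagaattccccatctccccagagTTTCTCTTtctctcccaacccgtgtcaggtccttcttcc
HLA-G: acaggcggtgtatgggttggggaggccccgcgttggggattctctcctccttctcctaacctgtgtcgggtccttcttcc
B2M: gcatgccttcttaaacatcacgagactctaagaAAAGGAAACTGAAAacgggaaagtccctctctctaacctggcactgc
TAP1: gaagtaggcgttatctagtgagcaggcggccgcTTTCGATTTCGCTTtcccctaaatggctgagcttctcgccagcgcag
TAPBP: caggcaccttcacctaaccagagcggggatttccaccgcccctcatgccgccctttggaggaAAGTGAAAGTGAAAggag

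LCCTam replicate 3 stood apart from the other arrays. Between the 3′ and 5′ actin controls the log2 signal differed by 1.92 there, against 0.90 to 1.15 on the other 5 arrays, and its 75th percentile of expression was 7.5, against 7.68 to 7.78. It held the lowest value of the 6 arrays for 20 of the 25 member probe sets (80%), against 30.5% of all 19065. For the members and the genes that passed, differences are therefore also given without it.

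HLA-B, HLA-C and B2M were lower in LCCTam, and the peptide transporter genes were not shown to differ. Of the 25 member probe sets, 6 passed an adjusted p of 0.05 (limma, Benjamini-Hochberg over all 19065 probe sets) with a lower value in LCCTam, or 24%, against 5.65% of all probe sets (7.37% in either direction). They were all 3 of HLA-B, both of B2M and 1 of the 4 of HLA-C. By the design text's own selection, which asks for a 2-fold change, 0 members were lower, against 1.74% of all probe sets. At an unadjusted p under 0.05 in limma 15 members were lower (14.7% of all probe sets). None passed with a higher value, where 1.72% of all probe sets did, and 0 members were higher at an unadjusted p under 0.05, against 8.01%. Every LCCTam value lay below every SUM44 value for 15 of the 25 (60%), against 16.6% of all probe sets, and above for 0, against 13.0%. These counts do not stand for independent measurements, since 15 of the 17 heavy chain probe sets carry the suffix _x_at, which marks probes that can hybridize to similar genes, and the heavy chain genes are alike in sequence. The median difference of the members was -0.47 on the log2 scale, against 0.013 over all probe sets, and -0.33 without LCCTam replicate 3, against 0.026.

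**Figure D1:**
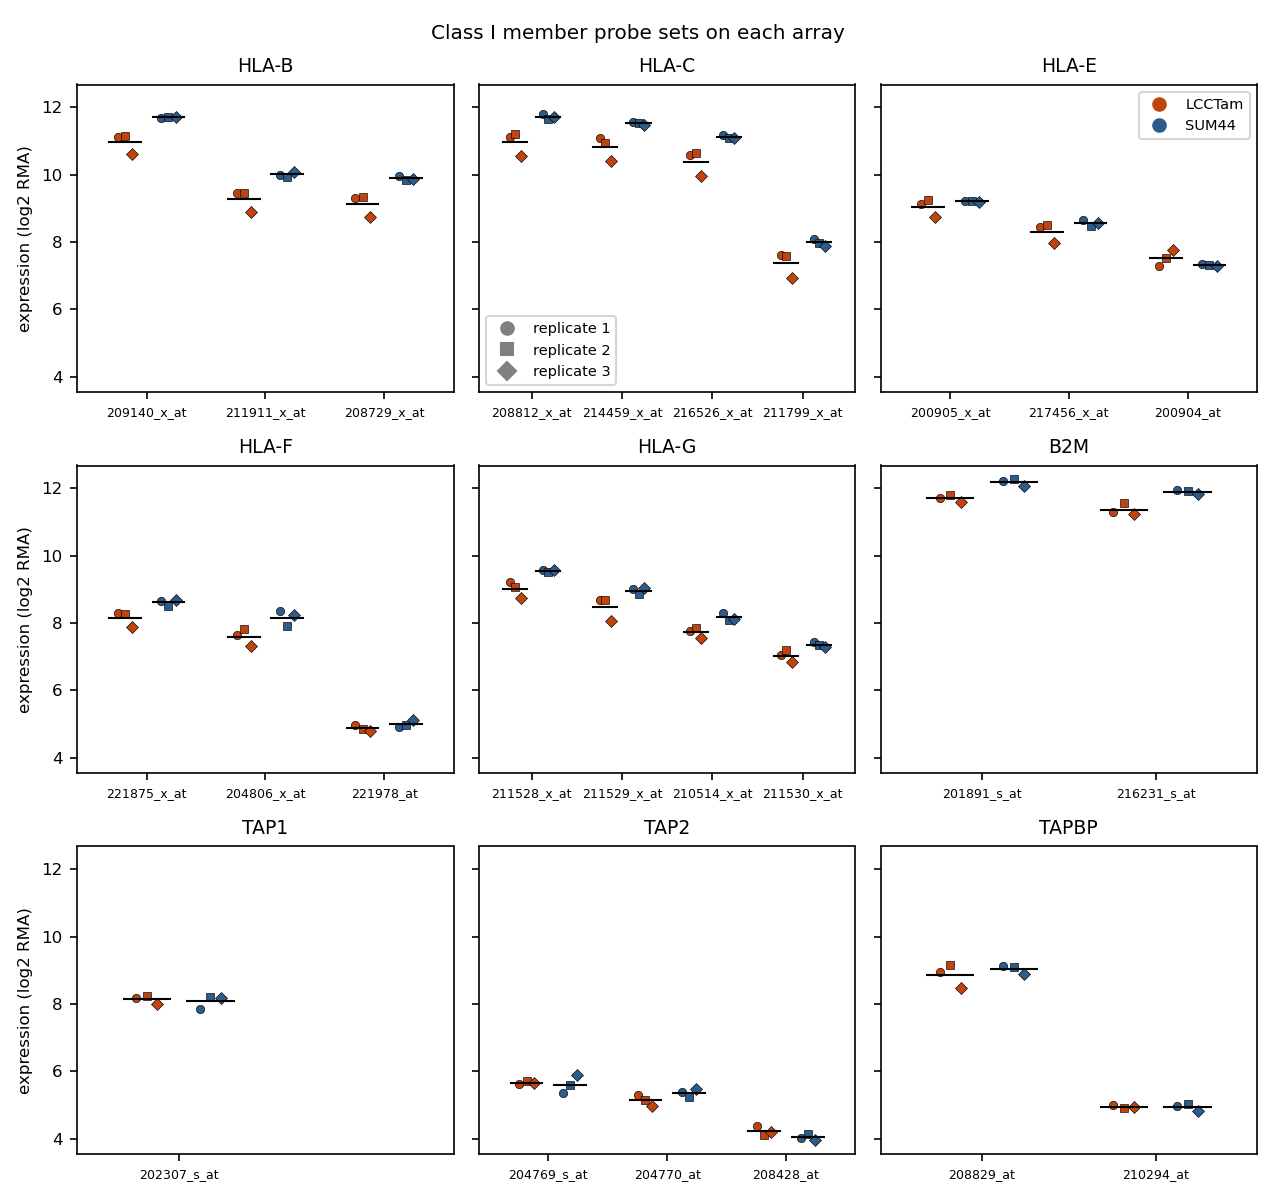
Log2 RMA expression of the 25 member probe sets in panels by gene, with the 3 LCCTam arrays left of the 3 SUM44 arrays for each probe set; marker shapes give the replicate and bars the mean. For HLA-B, HLA-C and B2M the lines do not overlap, and LCCTam replicate 3 is the lowest array.

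HLA-B encodes the heavy chain that varies most between people. Its brightest probe set (209140_x_at) read 11.12, 11.13 and 10.61 in LCCTam replicates 1 to 3, against 11.69, 11.71 and 11.70 in SUM44. The lines were apart on every array, and the SUM44 values were nearly equal. LCCTam minus SUM44 was -0.74 (SE 0.15, 95% interval -1.10 to -0.39, limma adjusted p = 0.0302), or 1.68-fold lower in LCCTam. The other probe sets, 211911_x_at and 208729_x_at, differed by -0.75 (limma adjusted p = 0.0419) and -0.77 (limma adjusted p = 0.0381). With LCCTam replicate 3 left out the brightest differed by -0.57 (limma adjusted p = 0.00732), and the 3 probe sets ranged from -0.58 to -0.55.

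HLA-C encodes the other classical heavy chain read here, a main ligand of killer-cell immunoglobulin-like receptors. Its brightest probe set (208812_x_at) read 11.11, 11.20 and 10.55 in LCCTam, against 11.80, 11.65 and 11.70 in SUM44. The pattern over the arrays was close to that of HLA-B. LCCTam was 1.70-fold lower, a log2 difference of -0.76 with an SE of 0.17 and a limma adjusted p of 0.0442. The remaining HLA-C probe sets differed by -0.71, -0.73 and -0.61 with limma adjusted p of 0.0614, 0.0615 and 0.108, and the lines did not overlap in any of them. All 4 passed without LCCTam replicate 3, at -0.56, -0.50, -0.51 and -0.39.

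B2M encodes beta-2-microglobulin, the light chain that all these heavy chains share. It lies on another chromosome, and neither of its probe sets carries the suffix _x_at. Probe set 201891_s_at read 11.71, 11.79 and 11.59 in LCCTam, against 12.21, 12.26 and 12.08 in SUM44. Probe set 216231_s_at read 11.29, 11.56 and 11.23 in LCCTam, against 11.93, 11.93 and 11.84 in SUM44. In both, each LCCTam array lay below each SUM44 array, and LCCTam replicate 3 was close to the other LCCTam arrays. The differences were -0.49 (SE 0.09, limma adjusted p = 0.0271) and -0.55 (SE 0.11, limma adjusted p = 0.0285), or 1.40-fold and 1.46-fold lower in LCCTam. They were -0.43 and -0.48 (limma adjusted p = 0.0305 and 0.0351) without LCCTam replicate 3. In samples of total RNA from many cells, fewer cells that express a gene and less of its RNA per cell cannot be told apart.

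These calls rested on few arrays. Lower calls in limma numbered 0 of the members without LCCTam replicate 1, SUM44 replicate 1 or SUM44 replicate 2, where 1.91%, 4.30% and 1.55% of all probe sets were called lower. They numbered 1 without LCCTam replicate 2 or SUM44 replicate 3, against 2.71% and 3.83% of all probe sets. At an unadjusted p under 0.05, 13 to 16 of the 25 members were lower in those fits, against 11.3% to 13.8% of all probe sets. Without LCCTam replicate 1, 1 member was higher, HLA-E 200904_at at 0.34 (limma adjusted p = 0.2). The share of all probe sets higher at an unadjusted p was not counted in that fit. Without LCCTam replicate 3, 10 members passed, or 40%, against 7.14% of all probe sets, 0 passed higher, against 4.60%, and all 9 probe sets of HLA-B, HLA-C and B2M were among them.

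**Figure D2:**
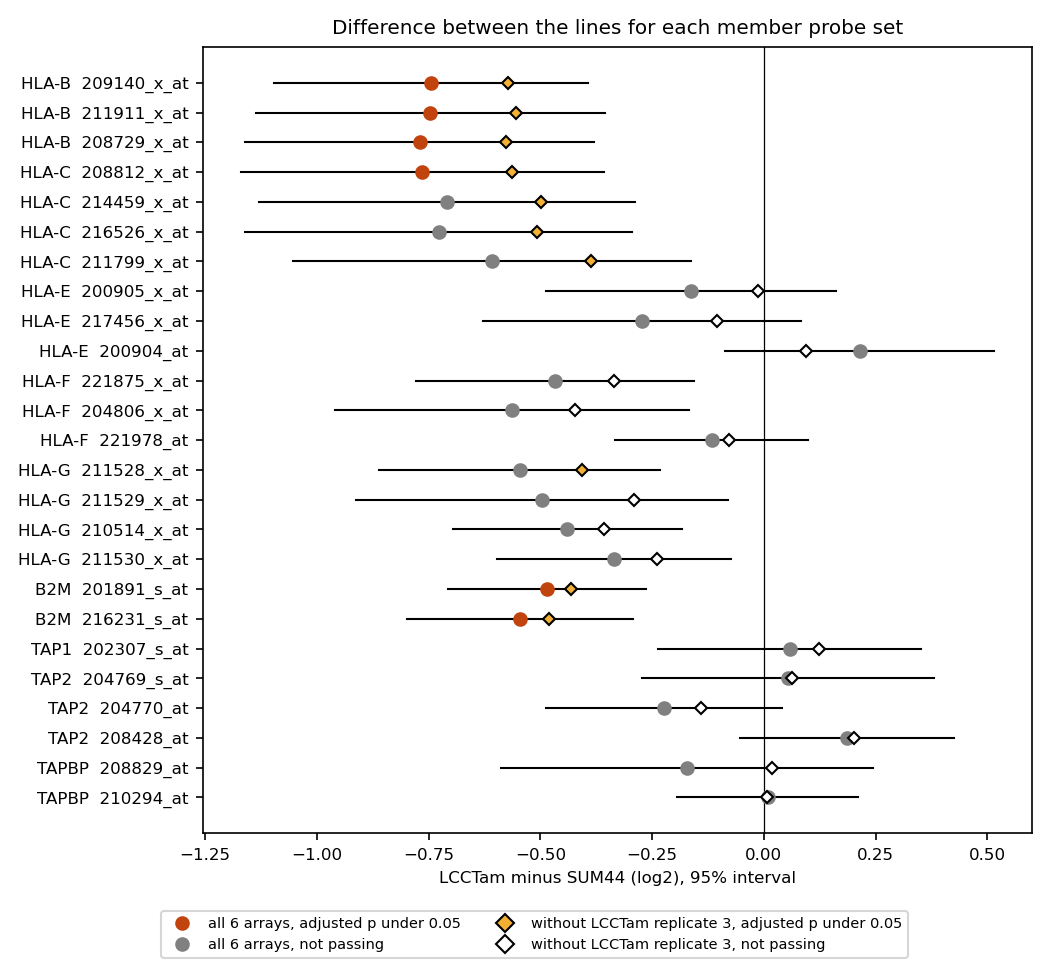
LCCTam minus SUM44 on the log2 scale for each member probe set, as circles with the 95% interval of the fit of all 6 arrays and as diamonds without LCCTam replicate 3; orange circles and yellow diamonds have an adjusted p under 0.05. The 9 probe sets of HLA-B, HLA-C and B2M lie between -0.77 and -0.49 with all arrays.

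None of the non-classical genes passed: the differences of HLA-F and HLA-G were all negative, and HLA-E had probe sets of both signs. Of their 10 probe sets 0 passed in limma, against 7.37% of all probe sets in either direction. At an unadjusted p under 0.05 in limma there were 6, all lower, against 14.7% of all probe sets. In 6 every LCCTam value lay below every SUM44 value, against 16.6%. HLA-E is the ligand of the CD94/NKG2 receptors. Its probe set 200905_x_at read 9.13, 9.26 and 8.74 in LCCTam, against 9.22, 9.21 and 9.20 in SUM44. Only LCCTam replicate 3 lay well below the rest. The difference was -0.16 (95% interval -0.49 to 0.16, limma adjusted p = 0.527), and -0.014 without that array.

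Probe set 217456_x_at of HLA-E differed by -0.27 (95% interval -0.63 to 0.08, limma adjusted p = 0.34), and by -0.11 without LCCTam replicate 3. The remaining HLA-E probe set, 200904_at, which has no suffix for shared probes, read 7.29, 7.54 and 7.77 in LCCTam, against 7.34, 7.33 and 7.29 in SUM44. Here LCCTam replicate 3 was the highest array, opposite to the other HLA-E probe sets. The difference was 0.21 (95% interval -0.09 to 0.52, limma adjusted p = 0.372), and 0.10 without that array.

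HLA-F, which is found at the surface of activated lymphocytes, had _x_at probe sets that differed by -0.47 (limma adjusted p = 0.0841) and -0.56 (limma adjusted p = 0.0968). Both read every LCCTam array below every SUM44 array, and they differed by -0.33 and -0.42 without LCCTam replicate 3. Its remaining probe set, 221978_at, was dim, at 4.88 ± 0.09 in LCCTam and 5.0 ± 0.10 in SUM44 (SD, n = 3 each), and the lines overlapped (difference -0.12, limma adjusted p = 0.496, and -0.079 without LCCTam replicate 3). HLA-G is normally restricted to tissues such as the placental trophoblast, and its 4 probe sets are all of the _x_at kind. Their differences ran from -0.55 to -0.34, the lines did not overlap in any, and 211528_x_at, with the largest, had a limma adjusted p of 0.0555. That probe set passed when LCCTam replicate 3 was left out (-0.41, limma adjusted p = 0.0306), and the others then differed by -0.36 to -0.24. Hybridization of other class I transcripts to these probes was not tested, so the values do not show that HLA-G was transcribed.

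**Figure D3:**
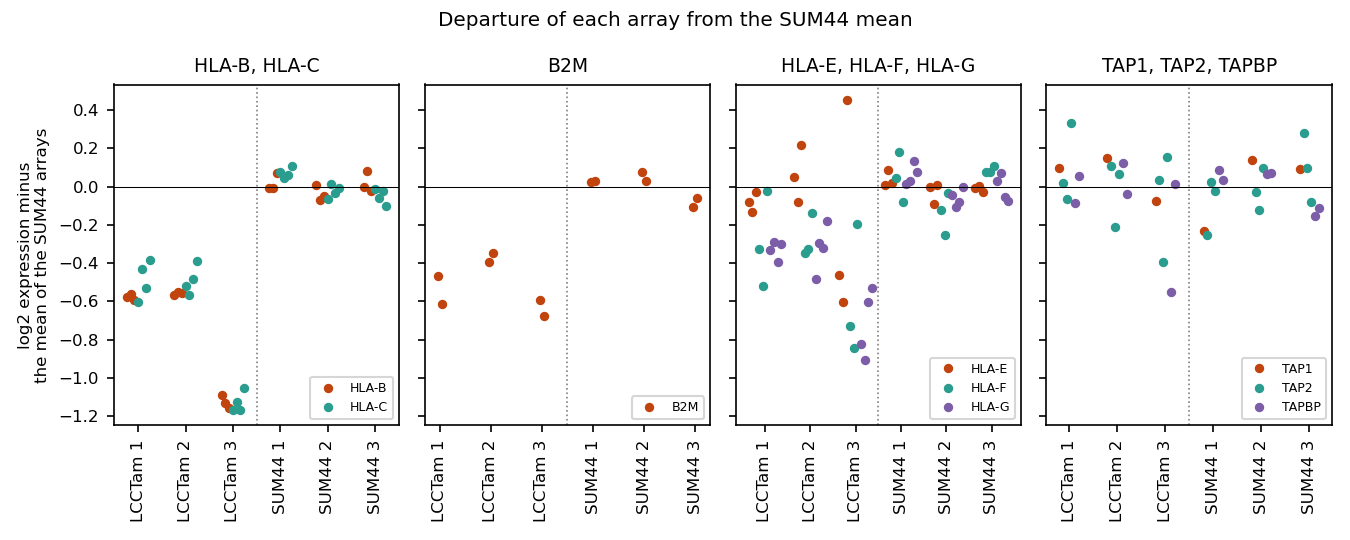
Log2 expression of each member probe set minus its own mean over the SUM44 arrays, for the LCCTam arrays on the left and the SUM44 arrays on the right of each panel. The median over the HLA-B and HLA-C probe sets was -0.56, -0.55 and -1.13 in LCCTam replicates 1 to 3, and for B2M it was -0.54, -0.37 and -0.63.

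The transporter genes had 0 of 6 probe sets passing in limma and 0 at an unadjusted p under 0.05. Of all probe sets 7.37% passed, and 14.7% were lower and 8.01% higher at an unadjusted p under 0.05. TAP1 encodes a subunit of the transporter that binds and moves peptides with its partner TAP2. Its probe set read 8.17, 8.23 and 8.00 in LCCTam, against 7.84, 8.21 and 8.17 in SUM44. The ranges overlapped, and the lowest value was in SUM44 replicate 1. The difference was 0.06 (95% interval -0.24 to 0.35, limma adjusted p = 0.822), and 0.12 without LCCTam replicate 3. The interval does not reach the -0.74 of HLA-B, but it holds differences down to its lower end.

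TAP2 encodes the partner subunit. Its probe set 204769_s_at read 5.62, 5.72 and 5.64 in LCCTam, against 5.35, 5.58 and 5.88 in SUM44, and the SUM44 values spanned those of LCCTam (difference 0.055, 95% interval -0.27 to 0.38, and 0.064 without LCCTam replicate 3). The others, 204770_at and 208428_at, differed by -0.22 and 0.19 with overlapping lines, and by -0.14 and 0.20 without LCCTam replicate 3. All 3 were dim, with mean values at percentiles 42.0, 34.2 and 10.3 of all probe sets, and the values hold no detection calls to say whether they were above background. TAPBP encodes tapasin. Its brighter probe set 208829_at read 8.95, 9.16 and 8.49 in LCCTam, against 9.12, 9.10 and 8.88 in SUM44, with LCCTam replicate 3 lowest again. The difference was -0.17 (95% interval -0.59 to 0.24, limma adjusted p = 0.612), and 0.018 without that array. The other probe set, 210294_at, differed by 0.0084, and by 0.0066 without it.

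The difference between HLA-B and each other member was taken within every array, from their brightest probe sets, and compared between the lines with a two-sided exact permutation test. With 3 arrays against 3 this exact test cannot go below p = 0.1. HLA-B minus B2M was -0.59, -0.66 and -0.98 in LCCTam, against -0.52, -0.55 and -0.38 in SUM44. All LCCTam values were lower for these probe sets, with a difference of -0.26 between the means (exact permutation p = 0.1). The difference was -0.14 without LCCTam replicate 3. Taken from the mean of all probe sets of each gene, it was -0.24 on all 6 arrays (exact permutation p = 0.2). The other 7 pairs were added after the values were seen. HLA-B minus HLA-E, TAP1, TAP2 and TAPBP was lower in LCCTam by differences of -0.58, -0.80, -0.80 and -0.57, and HLA-B minus HLA-F and HLA-G by -0.28 and -0.20. The first 4 were -0.56, -0.70, -0.64 and -0.59 without LCCTam replicate 3, and the last pair -0.24 and -0.17. In each of these 6 the lines did not overlap, and the exact permutation p was the smallest possible. All 6 use the same HLA-B values, already reported as lower in LCCTam, so they are not separate results. HLA-B minus HLA-C differed by 0.019 (exact permutation p = 0.7), and by -0.0096 without LCCTam replicate 3. Adjusted over the 8 pairs, the smallest exact p was 0.114, so none passed.

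Genes that prepare peptides or act on class I transcription were read from lists, with the brightest probe set standing for each gene. Among the 11963 genes 5.73% passed lower and 2.03% higher, and the median difference was 0.017. Without LCCTam replicate 3 these shares were 7.45% and 5.25%. In the immunoproteasome and its activator, 2 of 6 measured genes fell and 0 rose, with a median of -0.45. They were PSMB9 and PSMB8, catalytic subunits induced by interferon gamma, at -1.04 and -1.0 (limma adjusted p = 0.036 and 0.0165), and PSMB9 no longer passed when LCCTam replicate 3 was left out (-1.03, limma adjusted p = 0.0546), while PSMB8 did (-0.87, limma adjusted p = 0.0184). The list had 0 calls without LCCTam replicate 1, SUM44 replicate 2 or SUM44 replicate 3. In those fits 2.5%, 2% and 4.72% of all probe sets were called in either direction. PSMB9 read 7.03, 7.19 and 7.07 in LCCTam, against 7.61, 8.30 and 8.51 in SUM44. PSMB10, another catalytic subunit gene of the list, chosen after its values were seen, differed by -0.25 with overlapping lines (limma adjusted p = 0.57). Of 11 genes of class I loading and peptide trimming 1 fell and 0 rose, with a median of -0.03. It was the chaperone gene CANX, at -0.53 (limma adjusted p = 0.0442), and at -0.62 without LCCTam replicate 3. The list had 0 calls with quantile normalization between arrays and without _x_at and _s_at probe sets, where 8.29% and 6.8% of probe sets were called. It also had 0 without LCCTam replicate 1, LCCTam replicate 2, SUM44 replicate 2 or SUM44 replicate 3. There 2.5%, 3.43%, 2% and 4.72% of all probe sets were called.

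Among 16 regulators of class I transcription 5 fell and 0 rose, with a median of -0.29. IRF9, the DNA-binding subunit of the ISGF3 complex, read 6.99, 7.71 and 6.63 in LCCTam, against 9.41, 9.28 and 8.83 in SUM44 (difference -2.06, limma adjusted p = 0.0088). IRF1, which binds the interferon response element of class I promoters, differed by -1.14. The CCAAT-binding subunit gene NFYB read 7.49, 7.49 and 7.51 in LCCTam, against 8.56, 8.37 and 8.40 in SUM44 (difference -0.95, limma adjusted p = 0.00208). CREB1, a factor that can bind the class I promoter, differed by -0.78, and NFYA, a partner of NFYB chosen after its values were seen, by -0.70. Without SUM44 replicate 2, 1 of the 16 regulators was called lower, against 1.55% of all probe sets. When LCCTam replicate 3 was left out, IRF9, IRF1, NFYB, CREB1 and NFYA differed by -1.82, -0.84, -0.96, -0.83 and -0.55, all still passing. In that fit 5 regulators were lower and 2 were higher, RFXANK and NFYC, chosen after their values were seen. NFYC, the remaining NF-Y subunit, then differed by 0.46 (limma adjusted p = 0.043), against 0.24 with all arrays. RFXANK, a subunit of the RFX complex, then differed by 0.89 (limma adjusted p = 0.00391), against 0.65 and an adjusted p of 0.108 with all arrays.

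None of 7 interferon receptor and JAK kinase genes passed in limma. At an unadjusted p under 0.05 there were also 0, against 2810 of all 11963 genes. The largest difference was IFNGR1 at -0.26 (limma adjusted p = 0.321). Of 14 class I-like genes, which share the fold of the heavy chains, 2 fell and 0 rose, with a median of 0.05. AZGP1, a secreted relative of the heavy chains, read 6.92, 6.84 and 6.60 in LCCTam, against 10.13, 9.96 and 10.13 in SUM44 (difference -3.29, limma adjusted p = 0.00021, and -3.19 without LCCTam replicate 3). FCGRT, the heavy chain of the neonatal Fc receptor, which also pairs with beta-2-microglobulin, differed by -0.63 (limma adjusted p = 0.043), and by -0.74 without LCCTam replicate 3. With any other single array left out, 1 of the 14 class I-like genes was called, against 2% to 5.43% of all probe sets. Of 12 MHC class II genes 0 passed in limma and 2 had an unadjusted p under 0.05, against 2810 of all 11963 genes. The largest difference was in HLA-DRB4 at 0.33 (limma adjusted p = 0.107).

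**Figure D4:**
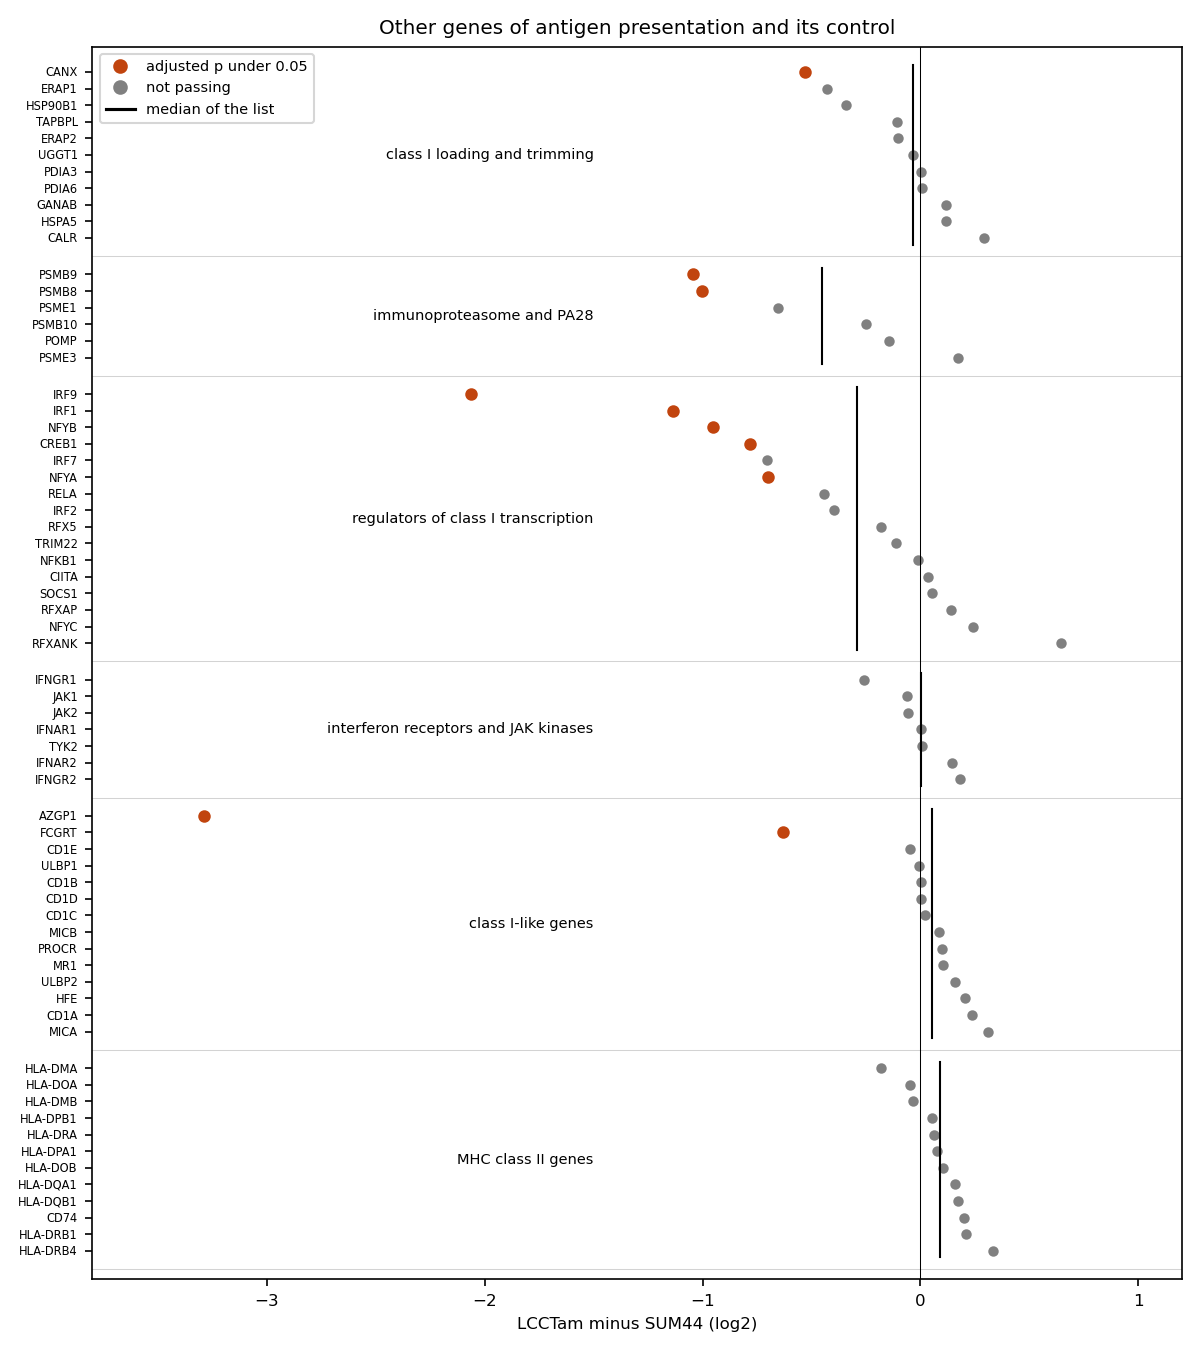
LCCTam minus SUM44 on the log2 scale for each measured gene of the 6 lists, 1 point a gene by its brightest probe set, with a vertical line at each list's median. Orange points passed an adjusted p of 0.05 in the fit of all 6 arrays, 10 in all, and all 10 are below 0. Among all genes 5.73% passed lower and 2.03% higher. With array weights 15 genes of the lists were lower and 12 higher, against 16.9% and 15.6% of all probe sets.

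The genes outside the class I set with the most similar pattern over the 6 arrays to HLA-B were PIEZO1, ZNF432, SLC75A1, INTS12 and CTBP1, out of 11954 genes. The measure was the root mean square distance after each gene was centred on its own mean, which was 0.0569 to 0.0716 for these genes and 0.428 for the median gene. PIEZO1 read 8.51, 8.41 and 7.95 in LCCTam, against 9.10, 9.04 and 9.16 in SUM44. All 5 had their lowest value on LCCTam replicate 3, as HLA-B did, against 30.5% of all genes. They were chosen for likeness to HLA-B on these same arrays, so this is not a separate result.

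The labelled cell type was checked with marker genes. Among all 11963 genes 5.73% passed lower and 2.03% higher, and 2810 had an unadjusted p under 0.05 in limma. The mean log2 expression of 11 luminal epithelial markers was 10.68 to 10.91 on the LCCTam arrays, against 11.23 to 11.36 on the SUM44 arrays, and 2 of them fell, ESR1 and TFF1, at -1.65 and -1.46 (-1.70 and -1.63 without LCCTam replicate 3). MUC1 differed by -1.38 without passing. The other 8 differed by -0.12 on average, between -0.34 and 0.32, with 0 passing in limma. That mean leaves out the 3 largest falls of the list, so it is smaller by that choice. At an unadjusted p under 0.05 in limma there were 4 of the 11, EPCAM among them at -0.30. For 12 leukocyte markers the mean was 5.27 to 5.43 in LCCTam, against 5.23 to 5.29 in SUM44, and 0 passed in limma (0 at an unadjusted p under 0.05; largest difference CD79A, 0.27). The common leukocyte antigen gene PTPRC averaged 4.88 in LCCTam and 4.70 in SUM44. For 11 fibroblast and endothelial markers the mean was 5.04 to 5.12 in LCCTam, against 5.06 to 5.13 in SUM44, and 0 passed in limma (0 at an unadjusted p under 0.05; largest difference PECAM1, -0.18). The part of the lower ESR1 and TFF1 values in the class I differences was not tested.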

How the data were processed

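Total RNA of 6 samples was hybridized to 1 Affymetrix array each. The deposited values are log2 expression per probe set, made by the authors with RMA (background correction, normalization across arrays, summary over probes), per the series' design text and the submitters' processing notes. The RMA version is not stated there, nor whether the lines were normalized together. The values hold no detection calls, and their number limits the precision. Samples were grouped by title. The labels do not say that passages were independent cultures, so the p-values reflect only how these arrays vary, which may be technical. Array scan dates were left out.

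Of 22283 probe sets 68 were controls, and 19065 others had 1 gene symbol, updated through Entrez identifiers with RefSeq. Differences, LCCTam minus SUM44, came from lmFit and eBayes of limma 3.58.1 (R 4.3.3) on these, with no intensity filter and Benjamini-Hochberg adjustment over all of them. The fit was tested on simulated data with independent noise, which hold no outlying array and no probes shared between genes, unlike these data. Single values were compared by exact permutation. Named were all members, up to 4 passing genes a list with the largest differences (the largest difference where none passed), and the 5 genes nearest to HLA-B. Members and lists were chosen with earlier results of these data known. Alternatives changed the probe sets used, normalization, filtering, weighting, moderation and the arrays included.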

Additional observations from a re-analysis of the deposited data

How the results depend on the processing

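Among the alternatives, 6 members passed lower in LCCTam with all probe sets but controls, as with the settings reported (5.16% of all probe sets), 9 with quantile normalization between arrays (4.80%), 9 without dim probe sets (7.78%) and 8 with trended and robust moderation (5.76%). With 1 probe set per gene 3 of 9 passed (HLA-B, HLA-C and B2M), against 5.83% of genes. Without _x_at and _s_at probe sets, which removes HLA-B, HLA-C and B2M altogether, 0 of the 6 left passed in limma (0 at an unadjusted p under 0.05), against 5.10%. With array weights 14 were lower and 1 higher, against 16.9% and 15.6% of all probe sets. That fit rested mainly on 1 LCCTam array, with a weight of 5.40 for replicate 1, against 0.71 and 0.20 for LCCTam replicates 2 and 3. The selection in the design text (a change of 2-fold or more with unadjusted p below 0.05 and an intensity floor of log2 of 10) took 0 members, against 1.74% of probe sets lower, since none differed 2-fold, although 15 were lower at an unadjusted p under 0.05 in limma, against 14.7%. Leaving out single arrays gave 0 to 10 members. The probe sets of HLA-B, HLA-C and B2M were all lower in LCCTam with quantile normalization. With array weights or an array left out their sign could not change, since every LCCTam value lay below every SUM44 value. Over these 8 alternatives, the ones that can change the size of a difference, the differences ran from -0.89 to -0.39. Of the genes in the 6 lists (6, 11, 16, 7, 14 and 12 measured) 10 passed, all lower. Of all probe sets 7.37% passed in either direction. With quantile normalization 10 list genes passed (9 lower and 1 higher), against 8.29% of all probe sets. Without _x_at and _s_at probe sets 6 passed, against 6.8%. With array weights 27 passed (15 lower and 12 higher), against 32.6%. The design text's selection took 5, against 2.23%. Leaving out single arrays gave 2 to 13, against 2% to 11.7% of all probe sets. HLA-B minus B2M ranged from -0.33 to -0.14 when single arrays were left out (exact p = 0.1 to 0.3). Differences that turned sign were not called. With the settings reported they were near 0, except TAPBP 208829_at at -0.17. TAPBP 210294_at gave -0.024 with quantile normalization. Over single arrays left out, TAPBP 210294_at ranged from -0.047 to 0.045, TAPBP 208829_at from -0.32 to 0.018, TAP1 from -0.057 to 0.13 and TAP2 204769_s_at from -0.071 to 0.19. The cause of these changes was not tested. No paired analysis was possible because the lines share no passage number.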
